A study of Mus musculus with 11 samples.

Results

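Efhc2, Dlx2, Kif26b, Cc2d2a, Itga9, Scnn1a, Adgrg1, Fam114a1, Dlc1 and Ephx1 are 10 mouse genes chosen because their mRNA stood at different levels in cells that received the H373R form of CTCF and in cells that received FL CTCF. All 10 were found among the 55228 gene symbols of the count table, and all 10 were among the 16420 genes with enough counts to be tested. The choice used the difference between the H373R and FL libraries, so that difference is given below as a description without a test. The choice set no numeric threshold. The 10 differences between H373R and FL ranked from 2nd to 2092nd in size among the tested genes, and 5 of the 10 were at least 2-fold.

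RNA was sequenced from 11 libraries of 1 mouse embryonic stem cell line, EN52.9.1 (CTCF-AID), in which the endogenous CTCF carries an auxin-inducible degron. The EV untreated group (3 libraries) received no auxin and is labelled as untreated wild type. The EV auxin group (2 libraries) received 500 µM of the auxin indole-3-acetic acid and is labelled as depleted of endogenous CTCF. The FL auxin group (3 libraries) and the H373R auxin group (3 libraries) received the same auxin and are labelled as having FL or H373R CTCF put back. Every group therefore carries the degron-tagged endogenous CTCF, and the groups with CTCF put back have no untreated counterpart among these libraries. H373R replaces a histidine by an arginine, and the titles of those libraries read ZF4. The promoter of the CTCF that was put back, its level as protein, the time in auxin and whether the lines are clones are not given in the sources used here.

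CTCF is a DNA-binding protein with a row of zinc fingers, each held in shape by histidines and cysteines that bind a zinc ion. Bound CTCF stops the cohesin ring as it extrudes DNA, which sets the ends of chromatin loops and limits which enhancers reach which promoters. The title of the series names CTCF as a binder of G-quadruplexes, stacked structures that G-rich DNA can fold into, and the contrast of FL with H373R asks how a changed zinc finger alters transcription. The 10 genes come from unrelated families: a transcription factor (Dlx2), ciliary or axonemal proteins (Cc2d2a, Efhc2), an atypical kinesin (Kif26b), surface proteins for adhesion, sodium entry and signalling (Itga9, Scnn1a, Adgrg1), a brake on small GTPases of the actin cytoskeleton (Dlc1), a detoxifying enzyme (Ephx1) and a little-characterised protein (Fam114a1).

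The promoters of Efhc2 and Dlx2 are shown first, since these genes had the widest gap between H373R and FL among the members in each direction. Both stretches are the 250 bases before the RefSeq start (build GRCm38.p6), read 5′ to 3′ along the gene's own strand, all in lower case because neither motif searched below was found in the window. The Efhc2 stretch lies at chrX:17319942-17320191 on the minus strand, and that of Dlx2 at chr2:71546755-71547004 on the minus strand.
Efhc2: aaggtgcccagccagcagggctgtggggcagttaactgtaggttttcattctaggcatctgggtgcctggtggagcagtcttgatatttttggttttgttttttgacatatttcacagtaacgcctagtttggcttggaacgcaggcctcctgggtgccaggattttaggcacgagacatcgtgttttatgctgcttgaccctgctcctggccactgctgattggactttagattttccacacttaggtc
Dlx2: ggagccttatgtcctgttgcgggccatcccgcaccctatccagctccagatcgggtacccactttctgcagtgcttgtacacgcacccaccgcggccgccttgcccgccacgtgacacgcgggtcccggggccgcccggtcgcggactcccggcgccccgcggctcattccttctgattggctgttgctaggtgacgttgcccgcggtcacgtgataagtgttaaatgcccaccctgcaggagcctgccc

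Promoters were searched from 250 bases before to 50 bases after the start, on both strands, for a G-quadruplex motif (4 runs of at least 3 G with loops of 1 to 7 bases) and for a CTCF core of fixed letters (CC, any 3 bases, AGG, any base, GGC). The promoter table used here matched 8 of the 10 members, with 9 promoters, and did not match Scnn1a and Dlc1. The starts used for Itga9 (chr9:118711692), Ephx1 (chr1:181017569) and Adgrg1 (chr8:94977109 and chr8:94984399) lie inside these genes. Their outermost starts in GENCODE M21 (chr9:118606690, chr1:181020904 and chr8:94974751) were not searched. The start used for Efhc2 (chrX:17319941) lies before its GENCODE M21 start (chrX:17319368), which the searched window does not reach. A G-quadruplex motif was found in 2 of these 9 windows, beside 18.6% of all 32851 windows in the table and 28.0% of the windows of tested genes. The CTCF core was found in 0 of 9, beside 3.43% of all windows and 5.35% of those of tested genes. The 2 motif matches are printed in capitals, and the capitals mark the whole match. The Ephx1 match lies at chr1:181017546-181017568 on the minus strand and begins 1 base past the start. The Adgrg1 match lies at chr8:94976934-94976956, is printed on the plus strand so that its G runs appear as C runs, and ends 153 bases before the start.
Ephx1: GGGCGGGGCTAGTGGGGGCGGGG
Adgrg1: CCCCACCCACAGCCCCGGAGCCC
A match describes letters only. Windows of the same length differ in base content, with a median GC share of 60.7% in the members, 60.3% in the windows of tested genes and 52.7% in all windows.

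The libraries held 13465241 to 29902246 counts each, and single members had 15 to 9710 counts in a library. Levels within a gene are given as CPM, the gene's counts relative to all counts of the library after TMM scaling for library size and composition. Levels are compared between genes only as TPM, which also divide by transcript length. The first EV untreated library stood further from its group than any other library did, and the count of members called after auxin was 8 with and without it. Ctcf mRNA, whose product the degron removes after translation, was at 294 to 364 CPM in the 11 libraries, so these counts do not check the depletion. Its mean was 253 TPM in FL and 246 in H373R, beside 252 in EV untreated and 284 in EV auxin. No added Ctcf mRNA was thus seen in the groups labelled as having CTCF put back. Of the marker lists, 8 embryonic stem cell genes (Pou5f1, Nanog and others) summed to 9710 to 10700 TPM in every library.

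The 6 primitive endoderm markers (Gata4, Gata6, Sox17, Dab2, Foxa2 and Pdgfra) moved with the groups. They summed to 16.5 to 18.0 TPM in EV untreated libraries, 18.6 to 20.7 in EV auxin, 57.6 to 63.1 in FL and 36.9 to 40.7 in H373R, and all 6 had a higher mean in FL than in H373R. The 6 fibroblast markers also moved. They summed to 64.6 to 71.0 TPM in the EV libraries, 80.3 to 90.1 in FL and 85.1 to 89.5 in H373R. Means in EV untreated, FL and H373R were 15.6, 21.9 and 20.3 TPM for Col1a1 and 36.7, 44.0 and 43.2 for Thy1. For Pdgfrb they were 13.4, 17.5 and 22.2, beside 17.5 in EV auxin. Group means of Col1a2 were 1.07 to 1.42 TPM, and Postn and Lum were at or near 0 throughout. The 5 neural progenitor markers summed to 38.8 to 41.2 TPM in EV untreated libraries and 45.3 to 57.5 TPM in the others. The 6 epithelial and trophoblast markers summed to 91.8 to 106 TPM in EV untreated libraries and 129 to 163 in the others. The part of these markers in the member values below was not tested. In bulk RNA, fewer cells of a type and less RNA per cell cannot be told apart.

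The comparison of EV auxin with EV untreated shares no library with the difference of H373R from FL, so it was tested. It asks how the 10 genes changed in EV cells given auxin, labelled as depleted of CTCF. The members were chosen with earlier results of these data known, so their EV levels may have entered the choice. The share of members called, beside that of all genes, is therefore not an independent test. Auxin exposure and loss of CTCF cannot be told apart here. Of the 10, 8 changed after auxin: Dlx2, Kif26b, Fam114a1, Scnn1a and Adgrg1 rose, and Cc2d2a, Itga9 and Dlc1 fell. Efhc2 and Ephx1 did not pass the test. Across all tested genes 20.7% passed the same test (edgeR quasi-likelihood test on counts, Benjamini-Hochberg adjusted p under 0.05), 11.3% upward and 9.40% downward. The median size of the change, without regard to sign, was 1.18 on the log2 scale over the 10 members and 0.16 over all tested genes. In all 8 genes that changed, H373R lay further from FL in the direction of the change in EV auxin. Because the members were picked for their FL and H373R values, this count of 8 is a description.

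**Figure D1:**
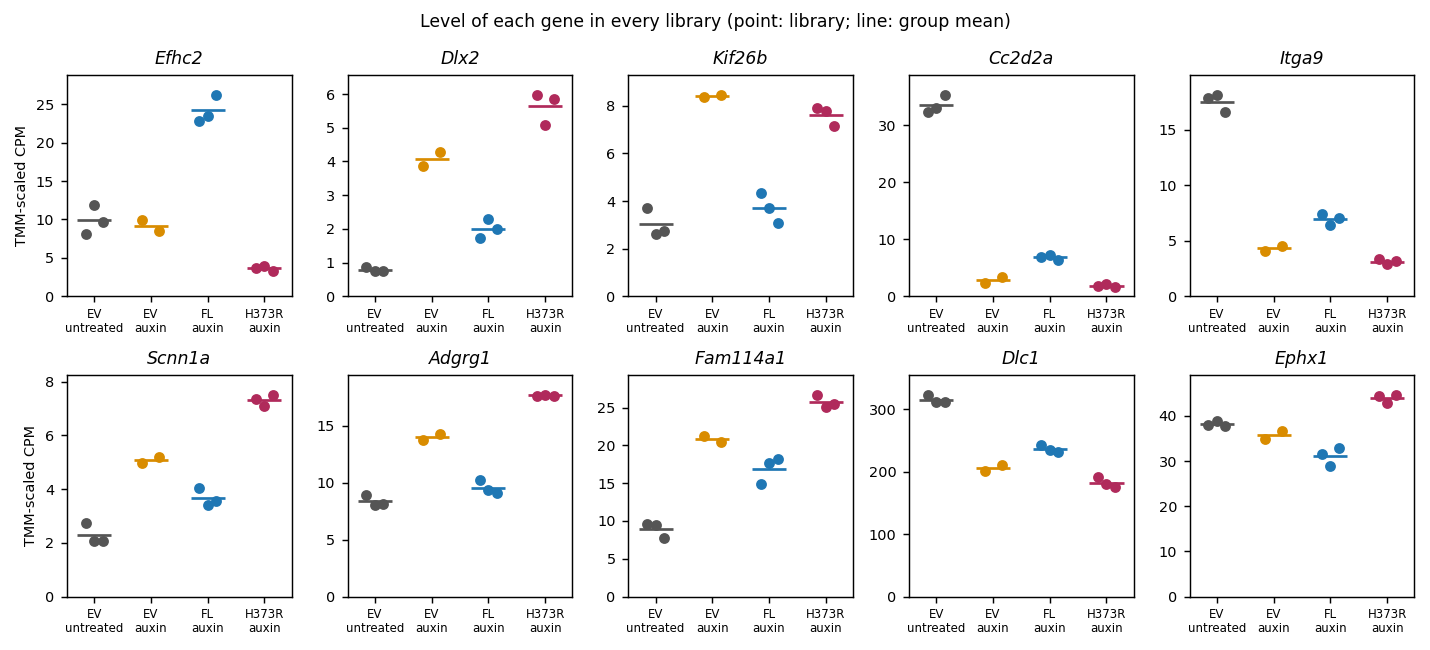
CPM of each of the 10 genes in every library, by group, on linear axes that start at 0 and differ between panels. Points are libraries and lines are group means. In 9 of the 10 panels the FL and H373R points lie on opposite sides of the EV auxin points, and Kif26b is the exception.

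Cc2d2a encodes a protein of the transition zone, the gate at the base of the primary cilium. It had 32.3, 32.9 and 35.3 CPM in the EV untreated libraries, 2.40 and 3.40 in EV auxin, 6.87, 7.21 and 6.32 in FL, and 1.85, 2.08 and 1.69 in H373R. Every auxin-treated library was far below every untreated library, and no group overlapped another. After auxin Cc2d2a fell 11.3-fold, by 3.50 ± 0.12 on the log2 scale (model SE, n = 2 and 3, edgeR adjusted p = 6.276e-11), which ranked 16th in size of 16420 genes. FL libraries stood 1.19 ± 0.15 above EV auxin on the log2 scale and remained 2.31 ± 0.09 below EV untreated. H373R libraries stood 0.67 ± 0.17 below EV auxin, and H373R and FL were 3.63-fold apart. The gene lies at chr5:43662346-43740972 on the plus strand in GENCODE M21 (GRCm38).

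Itga9 encodes integrin alpha9, which pairs with integrin beta1 to bind tenascin-C, osteopontin and other matrix proteins. It had 17.9, 18.2 and 16.6 CPM in EV untreated libraries, 4.11 and 4.57 in EV auxin, 7.44, 6.38 and 7.04 in FL, and 3.31, 2.88 and 3.15 in H373R. The groups lay in the order of Cc2d2a, from EV untreated down through FL and EV auxin to H373R, with no overlap. The fall after auxin was 4.01-fold, a log2 change of -2.01 ± 0.11 (SE, edgeR adjusted p = 2.916e-09). On the log2 scale FL stood 0.68 ± 0.12 above and H373R 0.48 ± 0.13 below EV auxin. Itga9 lies at chr9:118606690-118901003 on the plus strand.

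Dlc1 encodes a GTPase-activating protein that switches off small GTPases and thereby loosens actin stress fibres. Its levels were 323, 312 and 312 CPM in EV untreated libraries, 201 and 212 in EV auxin, 243, 236 and 232 in FL, and 192, 180 and 175 in H373R. The group order was again the same, but the steps were small. After auxin Dlc1 fell 1.53-fold, a log2 change of -0.61 ± 0.05 (SE, edgeR adjusted p = 6.813e-07). H373R and FL were 1.30-fold apart, the smallest gap of the 10 members. Dlc1 spans chr8:36567751-36953143 on the minus strand.

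Dlx2 encodes a homeobox transcription factor best known for specifying inhibitory neurons of the forebrain. It had 0.866, 0.734 and 0.735 CPM in EV untreated libraries, 3.88 and 4.28 in EV auxin, 1.72, 2.28 and 1.99 in FL, and 5.98, 5.09 and 5.85 in H373R. The 4 groups did not overlap, with H373R highest and EV untreated lowest. After auxin Dlx2 rose 5.19-fold, by 2.38 ± 0.18 on the log2 scale (SE, edgeR adjusted p = 1.47e-07). FL stood 1.06 ± 0.16 below EV auxin and 1.31 ± 0.19 above EV untreated on that scale. H373R stood 0.46 ± 0.13 above EV auxin, and 2.88-fold above FL. Dlx2 lies at chr2:71543408-71546754 on the minus strand.

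Kif26b encodes a kinesin-like protein without motor activity that acts downstream of Wnt5a and Ror receptors in cell migration. It had 3.70, 2.59 and 2.75 CPM in EV untreated libraries, 8.38 and 8.47 in EV auxin, 4.34, 3.72 and 3.06 in FL, and 7.92, 7.78 and 7.15 in H373R. FL overlapped EV untreated, and H373R lay just below EV auxin. After auxin Kif26b rose 2.75-fold, by 1.46 ± 0.15 on the log2 scale (SE, edgeR adjusted p = 4.5e-06). The log2 difference from EV auxin was -1.18 ± 0.15 in FL and -0.15 ± 0.13 in H373R. Kif26b was the only member with FL and H373R on the same side of EV auxin. It spans chr1:178529125-178939200 on the plus strand.

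Scnn1a encodes the alpha subunit of the epithelial sodium channel. Its CPM was 2.73, 2.06 and 2.06 in EV untreated, 4.96 and 5.19 in EV auxin, 4.06, 3.42 and 3.57 in FL, and 7.36, 7.08 and 7.50 in H373R. All 4 groups were apart, in the order of Dlx2. The rise after auxin was 2.20-fold, a log2 change of 1.14 ± 0.14 (SE, edgeR adjusted p = 3.871e-05). H373R stood 1.97-fold above FL. Scnn1a lies at chr6:125320659-125344943 on the plus strand.

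Adgrg1 encodes GPR56, an adhesion G protein-coupled receptor that binds collagen III and transglutaminase 2. It had 8.92, 8.08 and 8.12 CPM in EV untreated libraries, 13.7 and 14.3 in EV auxin, 10.2, 9.34 and 9.08 in FL, and 17.6, 17.7 and 17.6 in H373R. The FL libraries lay just above the untreated ones, and the H373R libraries were nearly equal to each other. In EV auxin Adgrg1 rose 1.67-fold, by 0.74 ± 0.09 on the log2 scale (SE, edgeR adjusted p = 1.776e-05). FL stood 0.19 ± 0.08 above EV untreated on the log2 scale, and H373R 1.07 ± 0.08 above it. The gene lies at chr8:94974751-95014217 on the plus strand.

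Fam114a1 is a conserved gene whose product has no settled function. It had 9.65, 9.50 and 7.79 CPM in EV untreated libraries, 21.3 and 20.4 in EV auxin, 14.8, 17.6 and 18.2 in FL, and 26.7, 25.1 and 25.5 in H373R. The groups kept the order of Dlx2 without overlap, and FL sat nearer to EV auxin than to EV untreated on the CPM scale. After auxin Fam114a1 rose 2.32-fold, by 1.22 ± 0.10 on the log2 scale (SE, edgeR adjusted p = 6.465e-07). Relative to EV auxin the log2 difference was -0.31 ± 0.10 in FL and 0.31 ± 0.10 in H373R. Fam114a1 lies at chr5:64970071-65041886 on the plus strand.

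Efhc2 encodes an EF-hand protein found inside the doublet microtubules of motile cilia. It had 8.09, 11.8 and 9.70 CPM in EV untreated libraries, 9.92 and 8.47 in EV auxin, 22.9, 23.5 and 26.3 in FL, and 3.74, 3.91 and 3.35 in H373R. The EV groups overlapped, every FL library was above all 5 EV libraries, and every H373R library was below them. The log2 change after auxin was -0.10 ± 0.14 (SE, edgeR adjusted p = 0.687), with a sign that turned in 2 of the fits that left out a library. On the log2 scale FL stood 1.41 ± 0.13 above and H373R 1.32 ± 0.16 below EV auxin, which gave a 6.63-fold gap between them, the 2nd largest of all tested genes. All 6 primitive endoderm markers, like Efhc2, Cc2d2a, Itga9 and Dlc1, had a higher mean in FL than in H373R. Their sum in H373R (36.9 to 40.7 TPM) was above that in the EV libraries (16.5 to 20.7 TPM), whereas Efhc2 in H373R was below the EV libraries. The part of these markers in the Efhc2 values was not tested. Efhc2 lies at chrX:17132049-17319368 on the minus strand.

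Ephx1 encodes microsomal epoxide hydrolase, which opens reactive epoxides formed during detoxification. Its CPM was 37.9, 38.8 and 37.7 in EV untreated, 34.9 and 36.6 in EV auxin, 31.6, 28.9 and 32.9 in FL, and 44.4, 42.9 and 44.6 in H373R. Both EV auxin libraries were below the untreated ones, but the log2 difference of -0.09 ± 0.07 (SE) did not pass the test (edgeR adjusted p = 0.368). All FL libraries were below, and all H373R libraries above, the 5 EV libraries. On the log2 scale FL stood 0.20 ± 0.07 below and H373R 0.30 ± 0.07 above EV auxin. Ephx1 lies at chr1:180976210-181020904 on the minus strand.

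**Figure D2:**
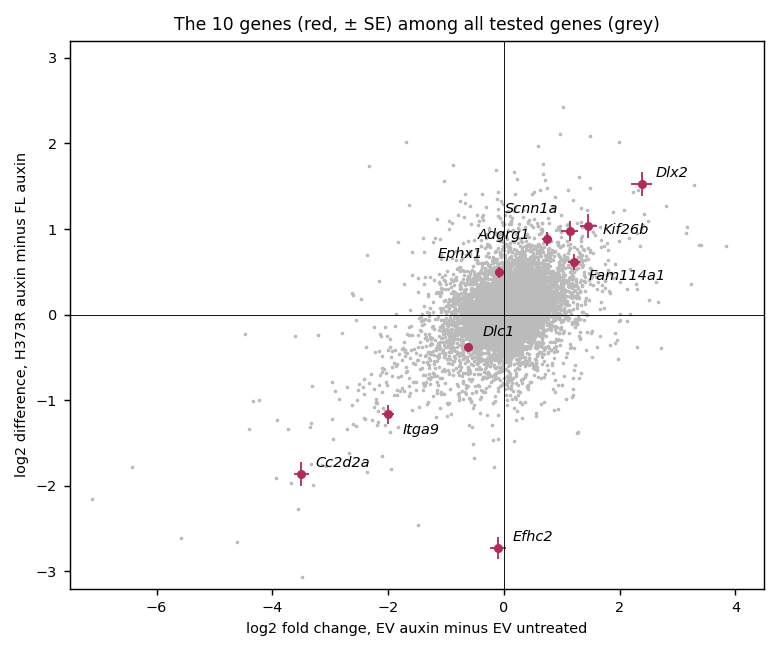
Log2 difference of H373R from FL (vertical) against log2 change of EV auxin from EV untreated (horizontal) for all tested genes in grey, with the 10 members marked. The 5 members that rose after auxin lie upper right, the 3 that fell lie lower left, and Efhc2 and Ephx1 lie near 0 on the horizontal axis.

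Read across the members, the libraries of EV auxin and EV untreated did not overlap for 9 of 10 genes, all but Efhc2, beside 44.9% of tested genes. FL and H373R did not overlap for any of the 10, beside 28.8% of tested genes with no overlap and 5.96% past the test in that comparison. Of these members 6 were higher in H373R (15.4% of tested genes) and 4 lower (13.4%). FL and H373R lay on opposite sides of both EV auxin libraries in 9 of 10 members, which 1.65% of tested genes showed. All H373R libraries lay outside the range of the 5 EV libraries in 9 members (31.1% of tested genes), and all FL libraries did so in 2, Efhc2 and Ephx1 (25.9%). The members were chosen on the difference of H373R from FL, so nothing is read from these counts that involve FL or H373R.

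The size of the FL and H373R offsets from EV auxin differed between members. FL minus EV auxin, on the log2 scale, ran from -1.18 ± 0.15 in Kif26b to 1.41 ± 0.13 in Efhc2. H373R minus EV auxin ran from -1.32 ± 0.16 in Efhc2 to 0.52 ± 0.12 in Scnn1a. These comparisons share the EV auxin libraries, so an error in those 2 libraries enters both.

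**Figure D3:**
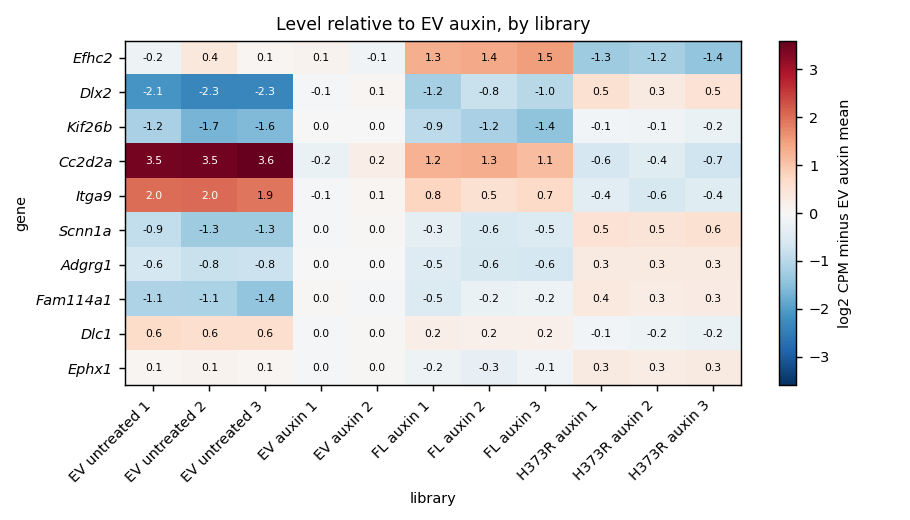
Log2 CPM of the 10 genes in each of the 11 libraries, relative to the mean of the EV auxin libraries, as colour and printed value. Cc2d2a is the strongest contrast between EV untreated and the rest, and Efhc2 the strongest between FL and H373R.

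Correlations of log2 CPM between members over the 11 libraries are a description, since the libraries share the 4 groups and include the FL and H373R libraries that chose the members. The 10 pairs among the 5 genes that rose had Pearson r from 0.83 to 0.98. The 3 pairs among Cc2d2a, Itga9 and Dlc1 had r of 0.99. The 15 pairs of a rising with a falling gene had r from -0.99 to -0.85. Efhc2 and Ephx1, which did not pass the test after auxin, had r of -0.94 with each other. With the other 8 members r ran from -0.76 to 0.47 for Efhc2 and from -0.32 to 0.61 for Ephx1.

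On the length-scaled measure the members covered a wide range of abundance. In EV untreated cells Dlc1 had the highest level at 80.8 ± 1.64 TPM (SD, n = 3), followed by Ephx1 at 73.5 ± 0.62, Cc2d2a at 18.5 ± 1.07, Efhc2 at 14.5 ± 2.70 and Fam114a1 at 11.3 ± 1.20. Cc2d2a and Efhc2 differed by more than their SDs, whereas Efhc2 and Fam114a1 were apart by less than their SDs combined. Below these came Itga9 at 8.57 ± 0.32 TPM, Adgrg1 at 5.80 ± 0.32, Scnn1a at 2.07 ± 0.35, Dlx2 at 1.02 ± 0.10 and Kif26b at 0.771 ± 0.15. In H373R cells the order had changed: Ephx1 led at 84.0 ± 2.20 TPM, Fam114a1 was the third at 32.3 ± 1.12, Dlx2 reached 7.37 ± 0.66, and Cc2d2a was lowest at 1.02 ± 0.10. In FL cells Efhc2 was the third at 34.7 ± 2.93 TPM.

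Genes with known ties to the members were read from 10 lists of family members, partners, ligands and targets, 92 genes in all, of which 78 were tested. After auxin 20 of the 78 passed the test (25.6%, beside 20.7% of all tested genes), 11 higher and 9 lower. Between H373R and FL 9 of 78 passed (11.5%, beside 5.96%), 6 higher and 3 lower, beside 3.14% and 2.82% of all tested genes. With single libraries of the groups of 3 left out, the first count ran from 13 to 28 and the second from 4 to 15. In those fits the calls over all tested genes moved too, from 2678 to 5444 of 16332 after auxin. Between H373R and FL they ran from 510 of 16344 to 2323 of 16332. Of the 20 calls after auxin, 6 held in every alternative that could be run for them (Dlx1, Dlx3, Ror2, Cyp1a1, Cyp2s1 and Gsta4), and the other 14 were all lost without EV auxin replicate 2. Of the 9 calls between H373R and FL, 3 held in every alternative (Dlx3, Nedd4l and Cyp2s1). The 14 genes not tested had at most 13 counts in any library.

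Of the Dlx family and its forebrain partners, 5 of 10 genes were tested and 2 passed, both upward in each comparison. Dlx1, a homeobox gene beside Dlx2, had 0.03, 0.05 and 0.11 CPM in EV untreated libraries, 0.74 and 0.62 in EV auxin, 0.29, 0.38 and 0.26 in FL, and 1.08, 0.71 and 0.81 in H373R. Its groups followed the order of Dlx2 at a far lower level. Dlx1 passed the count filter only through EV auxin and H373R, the groups where it is high, so its calls are given as a description. Summed counts were 28 in EV auxin and 5 in EV untreated, a ratio of 10.5 per sequenced read (95% exact interval 3.99 to 34.7, counting error only, edgeR adjusted p = 1.799e-04). H373R exceeded FL with 61 against 16 counts, a ratio of 2.91 (95% exact interval 1.66 to 5.40, edgeR adjusted p = 0.0117), a call that was lost in DESeq2 and in 3 of the fits without a library (without FL replicate 1, FL replicate 3 or H373R replicate 1, adjusted p up to 0.0712). The antisense gene Dlx1as had 0 counts in all libraries.

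Dlx3, on another chromosome and active in epithelia and placenta, rose by 0.71 ± 0.08 after auxin (log2, SE, edgeR adjusted p = 1.689e-05). It was 0.43 ± 0.08 higher in H373R than in FL (edgeR adjusted p = 0.00278). Its CPM was 14.9, 13.02 and 13.8 in EV untreated, 22.7 and 22.8 in EV auxin, 17.9, 15.9 and 16.0 in FL, and 21.5, 23.0 and 22.8 in H373R. FL libraries lay between the EV groups, and H373R libraries surrounded the level of EV auxin. Dlx4 did not pass either test (log2 0.15 after auxin and 0.08 for H373R minus FL), and Dlx5 and Dlx6 had at most 1 count in a library.

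Partners of Cc2d2a in the ciliary transition zone were all tested, 18 genes. After auxin 3 of 18 passed: Tctn1 at -0.39 and Tmem216 at -0.34 on the log2 scale were lower, and Tmem231 at 0.23 was higher. None of the 18 passed between H373R and FL in edgeR. The median log2 change over the list was -0.01 after auxin, against -3.50 for Cc2d2a itself. Of 7 tested genes for axonemal microtubule proteins, the class of Efhc2, none passed between H373R and FL in edgeR, with a median log2 difference of 0.22 over the list against -2.73 for Efhc2. Nme7, of that list, fell by 0.24 after auxin.

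Upstream of Kif26b, the list of Wnt5a, its Ror receptors and planar polarity genes held 10 tested genes. After auxin Ror2, a Wnt5a receptor, fell by 0.92 ± 0.11 (log2, SE, edgeR adjusted p = 3.097e-05), and Prickle1 rose by 0.48. Ror1 fell by 2.37 ± 0.65 from a mean of 0.664 CPM. With means of 0.12 to 0.15 CPM in the other groups, Ror1 passed the count filter through EV untreated, so its call is a description. Kif26b itself rose. Wnt5a, the ligand, was the only gene of the list to pass between H373R and FL, lower in H373R by a log2 difference of -1.18 ± 0.30 (edgeR adjusted p = 0.0331). It had 1.00, 1.44 and 0.87 CPM in FL and 0.52, 0.38 and 0.50 in H373R, and 5 of the fits without a library lost that call (without FL replicate 1 or 2 or any H373R replicate). Kif26a, the paralog of Kif26b, had log2 differences of 0.04 and 0.05 in the same comparisons.

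Of the 6 tested partners and ligands of integrin alpha9, 1 passed after auxin (Emilin1, a matrix glycoprotein, by 0.44) and none between H373R and FL. Itgb1, the beta subunit that pairs with Itga9, differed by -0.05 after auxin and by -0.07 between H373R and FL on the log2 scale, and did not pass. For the epithelial sodium channel, Scnn1b and Scnn1g, the other subunits, had at most 6 counts in a library. Prss8, a protease that activates the channel, rose by 0.63 after auxin. Nedd4l, the ubiquitin ligase that removes the channel from the membrane, was 0.26 ± 0.05 higher in H373R than in FL (log2, SE, edgeR adjusted p = 0.00467).

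Both known ligands of Adgrg1 on the list differed between H373R and FL. Col3a1, a collagen III chain, had 3.48, 2.43 and 3.82 CPM in FL and 1.51, 1.18 and 0.96 in H373R, a log2 difference of -1.46 ± 0.21 (SE, edgeR adjusted p = 6.709e-04). The EV libraries held 0.86 to 1.30 CPM, so FL alone stood high. Tgm2, transglutaminase 2, had 66.9, 59.6 and 63.1 CPM in FL and 79.1, 75.0 and 74.6 in H373R, a log2 difference of 0.27 ± 0.06 (edgeR adjusted p = 0.0093). Both sets stood above the 35.5 to 39.5 CPM of the EV libraries. The Tgm2 call was lost without FL replicate 2 or H373R replicate 1, and the Col3a1 call was lost with limma on log2 TPM (adjusted p up to 0.0856). Col3a1 is also expressed by fibroblasts, whose markers are given above, and its link to them was not tested.

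In the list around Dlc1, 1 of 9 tested genes passed in each comparison. Rhob, a small GTPase, rose by 0.34 after auxin, and Stard8, a paralog of Dlc1, was 0.30 lower in H373R than in FL on the log2 scale (difference -0.30 ± 0.08, edgeR adjusted p = 0.0336), a call that 13 of 21 other settings lost. In the list around Ephx1, 6 of 10 passed after auxin. Cyp1a1, which oxidises aromatic compounds, rose by 1.36 ± 0.22 (log2, SE, edgeR adjusted p = 4.103e-04), and Cyp1b1, Cyp2s1 and Gsta4 rose by 1.22, 0.51 and 0.34. Ephx2 (-0.18) and Gstm1 (-0.27) fell. Between H373R and FL, Cyp2s1 (0.34 ± 0.06, edgeR adjusted p = 0.00369) and Gsta4 (0.20 ± 0.05, edgeR adjusted p = 0.031) were higher in H373R. Gsta4 belongs to a family of similar genes, and 6 of the fits without a library, each lacking an FL or H373R replicate, lost its call. Fam114a2, the paralog of Fam114a1, passed neither test.

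**Figure D4:**
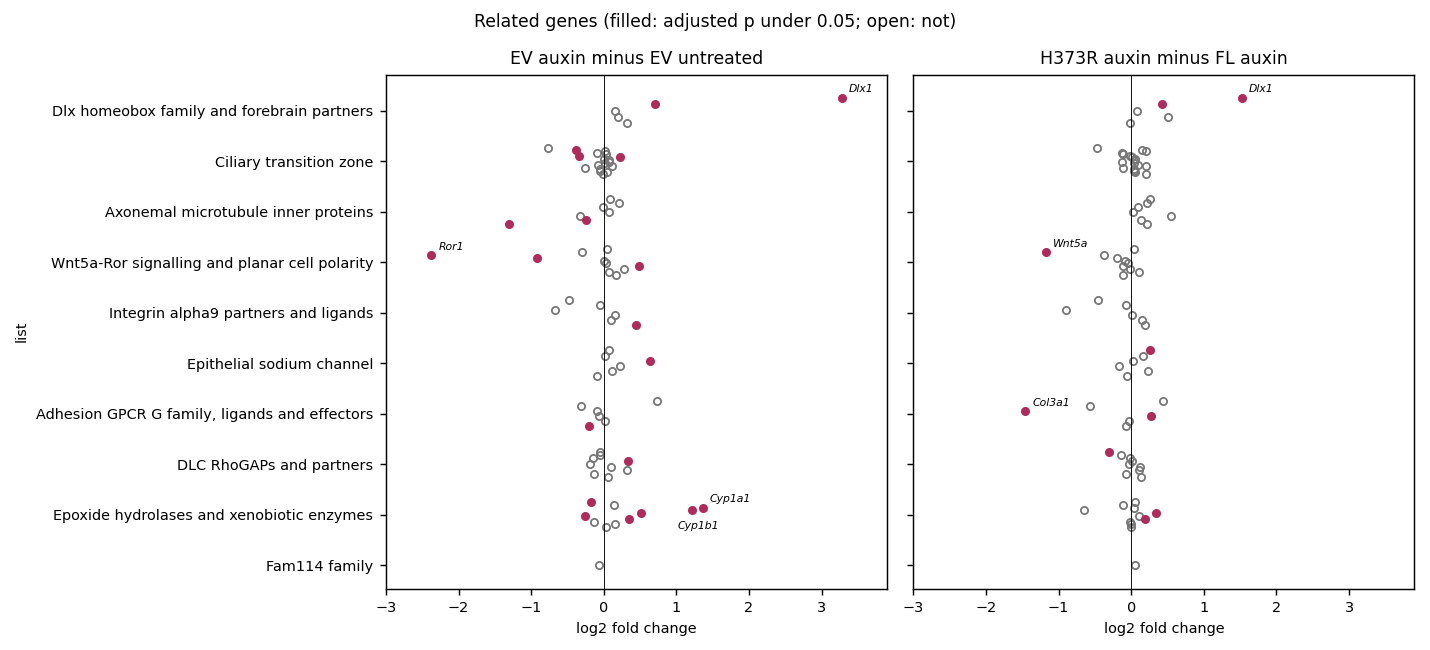
Log2 change of the 78 tested related genes after auxin (left) and log2 difference of H373R from FL (right), 1 row for each list. Filled points passed the test, and some of those beyond a change of 1 are named. Dlx1 lies farthest right in both panels, and Col3a1 and Wnt5a farthest left in the right panel.

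The 3 nearest tested genes on each side of each member, 60 in all, were compared in the same way. After auxin 23 of 60 passed (38.3%, beside 20.7% of all tested genes), 18 higher and 5 lower. Between H373R and FL 7 of 60 passed (11.7%, beside 5.96%), 5 higher and 2 lower. With single libraries of the groups of 3 left out, the first count ran from 15 to 27 and the second from 3 to 13. Both were highest without EV untreated replicate 1. In that fit 5444 and 2323 of all 16332 tested genes passed, beside 3392 and 979 of 16420 in the main fit. Calls after auxin that held in every alternative run for them were those of Dlx1, Trmt9b, Lonrf1, Lefty1, Smyd3, Vill, Cd9 and Dok4. Dlx1 was tested in 18 alternatives and the others in 21. The other 15 calls did not hold in every alternative, and among them were calls lost without an EV auxin library. Between H373R and FL the calls of Tuba3a and Tmem63a held in every alternative. Neighbours share a region, so the 60 genes are not independent.

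Around Dlc1, 2 of 6 neighbours passed in each comparison, both opposite in direction to Dlc1, and the other 4 passed in neither. Trmt9b, a tRNA methyltransferase relative whose start lies 495.6 kb from that of Dlc1, had 2.23, 2.74 and 3.01 CPM in EV untreated libraries, 7.30 and 8.01 in EV auxin, 4.58, 4.25 and 3.82 in FL, and 7.06, 6.04 and 7.62 in H373R. It rose by 1.54 ± 0.15 after auxin (log2, SE, edgeR adjusted p = 2e-06) and was 0.71 ± 0.13 higher in H373R than in FL (edgeR adjusted p = 0.00375). Lonrf1, the next gene, rose by 0.49 ± 0.06 after auxin (edgeR adjusted p = 4.159e-05) and was 0.24 ± 0.06 higher in H373R (edgeR adjusted p = 0.023), the second call being lost in 5 fits without a library (without FL replicate 2 or 3 or any H373R replicate). Dlc1 itself fell after auxin and was lower in H373R.

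Around Scnn1a, 5 of 6 neighbours passed after auxin. Ltbr and Tnfrsf1a, receptors of the tumour necrosis factor family on either side of Scnn1a, rose by 0.56 and 0.39 on the log2 scale, Plekhg6 rose by 0.47, and Cd9, a tetraspanin, fell by 0.23. Tuba3a, an alpha-tubulin gene whose near-identical copies make its counts uncertain, rose by 0.32 and was 0.37 ± 0.07 higher in H373R than in FL (edgeR adjusted p = 0.0042). The other 5 neighbours of Scnn1a did not pass between H373R and FL. Around Ephx1, Tmem63a, an ion channel gene, rose by 0.29 after auxin and was 0.33 ± 0.06 higher in H373R (edgeR adjusted p = 0.00645). Lefty1, an inhibitor of Nodal signalling, rose by 1.13 ± 0.09 after auxin (edgeR adjusted p = 4.761e-07) with a log2 difference of 0.05 between H373R and FL.

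Around Efhc2, 1 of 6 neighbours passed after auxin (Chst7, a sulfotransferase, by 0.91) and 0 of 6 between H373R and FL in edgeR. The largest gap among the members was thus not matched by a call in its nearest tested neighbours, which had a median log2 difference of 0.05. The starts of these neighbours lay 253.0 to 3468.0 kb from that of Efhc2. Around Dlx2, Dlx1 at a start-to-start distance of 18.6 kb passed in both comparisons, Pdk1 was higher after auxin (0.15) and lower in H373R than in FL (-0.18), and Hat1 fell after auxin by 0.33. Around Cc2d2a, Bod1l (-0.31) and Rab28 (-0.25) fell and Bst1 (1.06) rose after auxin, with 0 of 6 past the threshold between H373R and FL. Their starts lay 1818.0, 1954.2 and 156.5 kb from that of Cc2d2a. Of 21 alternatives, 8 lost the call of Bod1l and 12 that of Rab28. Bst1 had 1.15 ± 0.66 CPM in EV auxin (SD, n = 2), and 7 of 20 alternatives lost its call. Its log2 change was as low as 0.22 in the fits without a library. Around Kif26b, Smyd3 fell by 0.46 after auxin, and Hnrnpu was lower in H373R than in FL (-0.17). Their starts lay 988.9 and 191.3 kb from that of Kif26b. Near Itga9, Adgrg1 and Fam114a1, Vill (0.43), Dok4 (0.62), Ccdc102a (0.42), Tlr6 (1.47) and Klhl5 (0.21) rose after auxin. None of the 18 neighbours passed between H373R and FL. Other settings kept the calls of Vill and Dok4 but lost those of Ccdc102a (15 of 21), Klhl5 (13 of 21) and Tlr6 (6 of 18). Tlr6 was low, with means of 0.25 CPM in EV untreated and 0.73 in EV auxin.

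**Figure D5:**
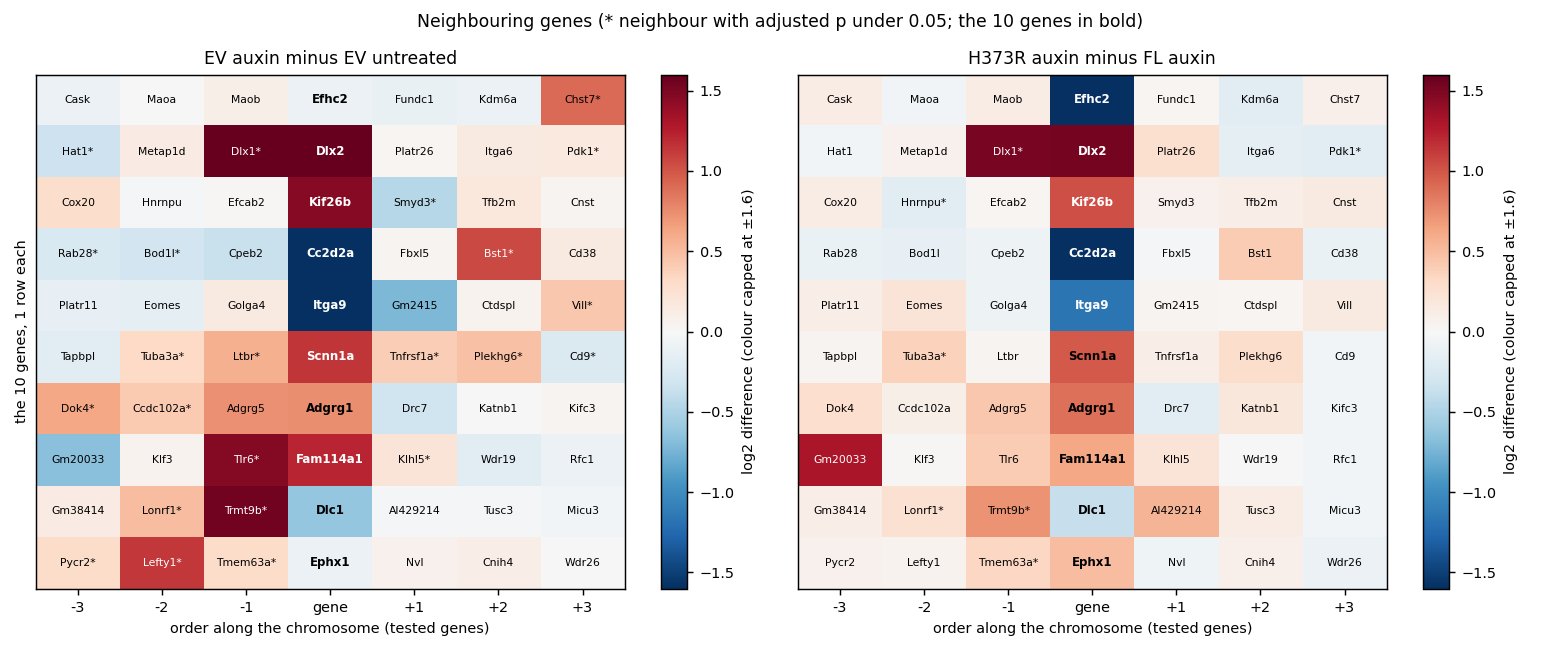
Log2 change after auxin (left) and H373R minus FL (right) as colour for each member (centre) and its 3 nearest tested genes on each side, by order along the chromosome. Cc2d2a, Itga9 and Kif26b are among the members that differ more than all their neighbours in both panels, and Efhc2 does so only in the right panel. Trmt9b beside Dlc1 points the opposite way to Dlc1.

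The genes whose log2 CPM was most like each member over the 11 libraries were found by Pearson r among tested genes whose log2 CPM averaged 1 or more, and are a description. Efhc2 was matched best by Spry4 (r = 0.95), an inhibitor of receptor tyrosine kinase signalling, which went from 92.8 ± 0.62 CPM in H373R to 146 ± 1.38 in FL. Dlx2 and Fam114a1 were both matched best by Nnat (r = 0.99 and 0.98). For Kif26b these were Gpat2 and Dlx3 (r = 0.98 for both). Cc2d2a and Itga9 shared Ank, a phosphate transporter gene (r = 0.99 for both), which fell from 17.4 ± 0.26 CPM in EV untreated to 8.46 ± 0.36 in EV auxin and stood at 11.4 ± 0.52 in FL and 8.07 ± 0.22 in H373R. Dlc1 was matched best by Etv5 (r = 0.99), an ETS transcription factor, and shared Myrf (r = 0.99) with Itga9. Scnn1a had Tmem191c and Plk3 (r = 0.99 for both), Adgrg1 had Aqp3 and Syngr2 (r = 0.98 for both), and Ephx1 had Hsf2bp (r = 0.95) and Meak7 (r = 0.94).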

How the data were processed

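The authors deposited raw counts per gene symbol and TPM for the same 11 libraries, from strand-specific RNA-seq per the labels' protocols. The submitters' processing notes name featureCounts, Subread 2.0.3, DESeq2 and the builds mm10 and GRCm38. The aligner and whether counting used strand are not given in the sources used here, so genes that overlap others or have near-identical copies are uncertain.

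The main test was edgeR 4.0.16 (R 4.3.3) on the counts, scaled by TMM. Filtering with filterByExpr left 16420 genes. One coefficient per group was fitted to the 11 libraries together, because EV auxin has 2, and contrasts were tested by quasi-likelihood. P-values were adjusted over the 16420 genes (Benjamini-Hochberg) and called under 0.05. The SE of a log2 change is its size divided by the square root of F. Correlations used log2 CPM (prior count 2). The labels do not say that replicates were separate cultures, so p-values measure the spread between these libraries, which may be technical. No 2 libraries of a group agreed within sampling noise.

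Coordinates are from GENCODE M21 (GRCm38), and promoters from RefSeq (GRCm38.p6). The script was tested on simulated data. Alternatives were DESeq2 1.42.0, limma 3.58.1 on log2 TPM, other scalings and filters, a replicate block and leaving out each library. Named genes were all members, listed relatives past the threshold or closest to a member, neighbours past the threshold, and the 2 genes most like each member. Some listed relatives are not reported here. The members and lists were chosen with earlier results of these data known.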

Additional observations from a re-analysis of the deposited data

How the results depend on the processing

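The 8 members called after auxin stayed at 8 in all 21 alternatives. Efhc2, not called after auxin, changed sign to 0.034 without EV untreated replicate 2 and to 0.0115 without EV auxin replicate 2 (log2 range over the fits without a library -0.24 to 0.034). The related genes called after auxin (20) fell to 11 with only the compared libraries in the fit. They also fell to 11 with limma on log2(TPM + 1), on log2(TPM + 0.1) and with no TPM filter. Without single libraries of the groups of 3 they ran from 13 to 28. Related genes called between H373R and FL (9) ran from 4 to 15 without single libraries. Neighbours called after auxin (23) numbered 14 with only the compared libraries and 15 with limma and no TPM filter. Without single libraries of the groups of 3 they numbered 15 to 27. Both counts after auxin, of related genes and of neighbours, were lower still without an EV auxin library, which leaves a single library in that group. Neighbours called between H373R and FL (7) numbered 4 with limma and no TPM filter, and 3 to 13 without single libraries. Calls over all tested genes moved in these settings as well. After auxin they numbered 3392 of 16420 in the main fit and 2016 of 16302 with only the compared libraries. They numbered 2728 of 17186 with limma on log2(TPM + 1) and 5444 of 16332 without EV untreated replicate 1. The cause was not tested.

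The correlation of deviations from the group means ran from -0.09 to 0.28 for same-numbered libraries of different groups (15 pairs, 3 over 0.1) and from -0.20 to 0.13 for differently numbered ones (30 pairs, 1 over 0.1). The same-numbered EV untreated and FL libraries had values of 0.28, 0.12 and 0.096, but not every pair was over 0.1, so the numbers were not taken as pairing the libraries. With the number as a replicate block the members called stayed at 8, the related genes called were 17 and 8, and the neighbours called were 20 and 6.

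On log2(TPM + 1) the H373R minus FL differences of low genes were smaller (Kif26b 0.61, Cc2d2a -1.20), which follows from the pseudocount. The EV auxin group has 2 libraries, and leaving out 1 assumes that the other varies like the other groups. Dlx1 rests on 1 to 25 counts a library and passed the count filter only through EV auxin and H373R.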
